A study of Mus musculus with 10 samples.

Results

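The 5 libraries labelled Ino80WT, of 10 libraries in the series, were described on their own as the baseline transcriptome of the juvenile mouse testis cell suspension. They were chosen by the genotype label alone, and no other genotype entered any value. Each library was made from polyA RNA of cells freed from the seminiferous tubules of testes at postnatal day 18, in mice of mixed background, by digestion with collagenase and trypsin and passage through a fine filter. The other libraries of the series carry a testis-specific Ino80 deletion driven by Stra8-Cre. The labels do not say whether the Ino80WT animals also carried an engineered Ino80 allele or the Cre transgene, nor whether each library came from a separate animal or from pooled ones. The spread between the 5 libraries may therefore be technical in part. With 1 group there is no comparison to test, so the values below are levels, ranges and ranks, each as mean ± SD over n = 5 libraries unless said otherwise.

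At this age the first wave of spermatogenesis is under way and synchronous enough that the most advanced germ cells are still in meiosis. Spermatogonia, the mitotic stem and progenitor cells, enter meiosis under retinoic acid, pair their chromosomes in leptotene and zygotene, and pass into pachytene, where meiotic recombination is completed, the X and Y are silenced in the sex body and many genes needed later by sperm are switched on. Round and elongating spermatids, which pack their DNA with transition proteins and protamines, follow. Sertoli cells nurse the germ cells inside the tubule, peritubular muscle cells surround it, and Leydig cells, vessels, fibroblasts and macrophages lie between the tubules.

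Before the results, the libraries themselves differed. Counts assigned to genes ran from 16750609 to 23700094 per library, over 23420 gene rows, and the limit that a count of 0 allows, 3 counts, lay between 0.127 and 0.179 CPM, the counts of a gene for every 1000000 gene counts of its library. No pair was a repeat of the same library: even the closest pair, Ino80WT 2 and 5, differed by a chi-square of 18.4 for each degree of freedom. Ino80WT 1 and Ino80WT 2 held the most ribosomal RNA precursor and other structural RNA, and Ino80WT 1 was also low in long genes. Ino80WT 3 was high in immediate early and pachytene genes and low in somatic genes. The sums, ratios and counts that rest most on these libraries are also given without them.

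The data covered 13520 genes at 1 CPM or more in all 5 libraries, which is 57.7% of the gene rows, and 95.8% of these genes were protein-coding. A further 3707 rows had no count in any library. The levels were spread wide: 10264 genes had a mean of at least 10 CPM, 2814 of at least 100 CPM and only 30 of at least 1000 CPM. The 1461 most abundant genes held 50% of the counts and the 6463 most abundant held 90%.

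Rn45s, the precursor of the 18S, 5.8S and 28S ribosomal RNAs, was the most abundant row in all 5 libraries. It took 7.08%, 4.66%, 2.05%, 1.60% and 2.96% of the gene counts in Ino80WT 1 to 5. The share was thus highest in Ino80WT 1 and 2 and lowest in Ino80WT 4. This transcript is made by RNA polymerase I and carries no polyA tail, and the cause of its spread between polyA-selected libraries was not tested.

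The protein-coding gene with the highest mean CPM was Hsp90aa1, although the Lars2 row, taken up below, had more in Ino80WT 1 and 2, at 8497 and 5434 CPM. Hsp90aa1 encodes the inducible cytosolic chaperone HSP90-alpha, which is abundant in germ cells. It had 4750, 3652, 4763, 3932 and 5007 CPM in Ino80WT 1 to 5, or 4421 ± 592, and no library stood apart. Eef1a1, the elongation factor that brings aminoacyl-tRNA to the ribosome, followed a similar flat pattern at 2917, 2797, 2755, 2885 and 2602 CPM. Pabpc1, which binds polyA tails, had 2658, 2654, 3265, 2152 and 2418 CPM. Clu, a secreted chaperone made by Sertoli cells, had 2569, 2248, 1637, 2003 and 1727 CPM and was lowest in Ino80WT 3. A somatic marker thus ranked seventh among all rows of a suspension labelled as spermatogenic cells.

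Dnahc8, an axonemal dynein heavy chain of the sperm tail, had 557, 1299, 2157, 977 and 1463 CPM, so Ino80WT 1 was the lowest and Ino80WT 3 the highest. Trip12, a ubiquitin ligase, had 1435 ± 273 CPM. Both are long transcripts, and Ino80WT 1 was low in long transcripts as a whole, as given further on.

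Most other genes among the 20 with the most counts were kept within narrow limits. These were the chaperones Hsp90b1, Hspa5, Hspa8 and Calr, of which the first, the second and the last work in the endoplasmic reticulum; the RNA-binding proteins Ddx5, Hnrnpa2b1 and Hnrnpu; the translation factors Eef2 and Eif4g2; the replacement histone gene H3f3b; and the cytoskeletal actin gene Actg1. Their means ran from 1241 ± 40.1 CPM for Hnrnpu to 1731 ± 146 CPM for Hsp90b1. Lars2, the mitochondrial leucyl-tRNA synthetase, was the exception, with 8497, 5434, 1227, 1754 and 2592 CPM, a pattern close to that of Rn45s. Whether the counts of this row come from the synthetase mRNA was not tested, so they are not read as its level.

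**Figure D1:**
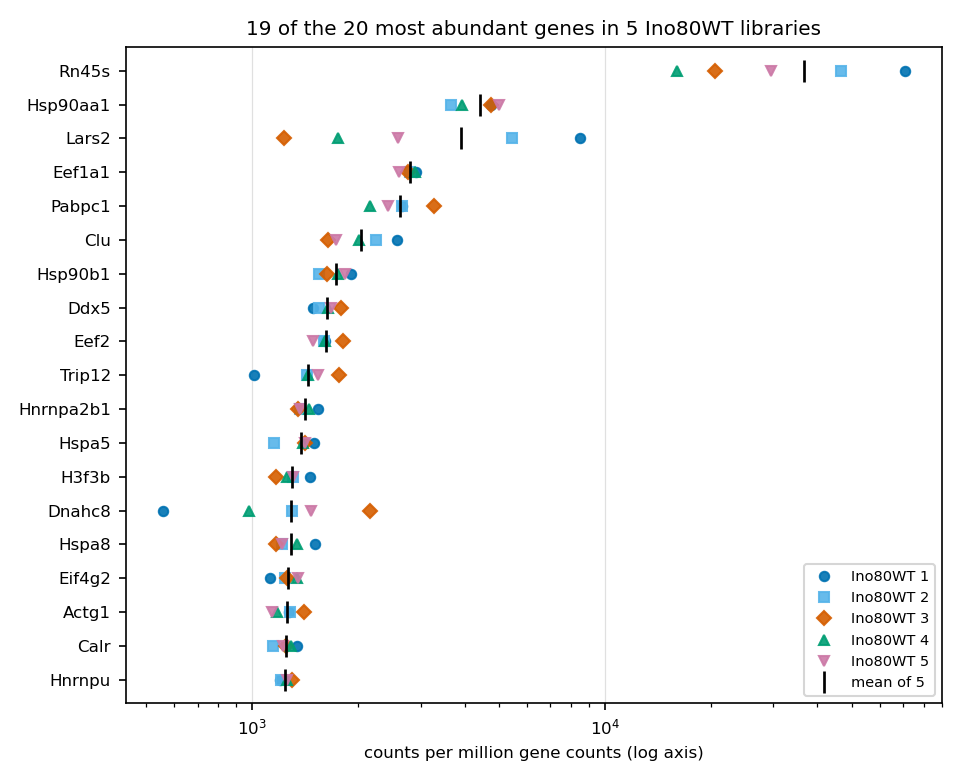
CPM of 19 of the 20 rows with the highest means, on a log axis, with 1 symbol per Ino80WT library and a bar at the mean of 5. Rn45s and Lars2 spread widest, with Ino80WT 1 and 2 highest, and Dnahc8 runs from 557 in Ino80WT 1 to 2157 in Ino80WT 3, while most of the others lie close together.

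A CPM value grows with the length of a transcript, so levels of different genes were compared per kilobase of exon, scaled to the same total in each library. On that scale, which leaves out Rn45s because no exon length was matched to it, Hsp90aa1 and Eef1a1 had ranks 2 and 3, behind only Bc1, a short non-coding RNA with under 200 bases of exon, whose level on this scale is not given. Short transcripts of the germ line moved up: Ldhc, the testis lactate dehydrogenase, reached rank 7 at 2604 ± 573 and Fabp9, a fatty acid binding protein of sperm, reached 2228 ± 209. Meig1, a germ-cell gene needed for sperm formation, and Ybx2, which stores germ-cell mRNAs, had 1756 ± 239 and 1751 ± 277 per length. Long transcripts moved down, with Trip12 at rank 399 and Dnahc8 at rank 958. Fabp9 was named after its value was seen.

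The 100 most abundant genes took 17.2%, 14.6%, 12.7%, 11.3% and 13.2% of the gene counts in Ino80WT 1 to 5, or 13.8 ± 2.22%. Without Rn45s the share was 10.6 ± 0.403%, so most of the spread between libraries in this share came with that 1 row. The 10 most abundant genes held 6.03% of counts with Rn45s and 2.60% without it, and the 1000 most abundant held 41.7%.

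Germ-cell genes made up more of the counts than somatic genes in all 5 libraries. The 163 genes of 6 germ-cell lists summed to 23080, 22892, 28975, 22871 and 26406 CPM, or 2.48% of counts, with 123 of them at 1 CPM or more in every library. The 143 genes of 10 somatic lists summed to 10415, 9229, 6487, 9401 and 8304 CPM, or 0.877% of counts, with 98 at that level. Of all gene rows, 57.7% reached it. The ratio of germ to somatic sums was 2.22, 2.48, 4.47, 2.43 and 3.18, and per length it was 1.85, 2.13, 4.07, 2.03 and 2.66. Over the 4 libraries other than Ino80WT 3 the ratio averaged 2.58 ± 0.418, against 2.96 ± 0.919 over all 5. Ino80WT 3 had the highest germ sum and the lowest somatic sum. The 2 sums cover lists of different sizes, and in RNA from mixed cells fewer cells of a type and less RNA per cell cannot be told apart, so the ratio is not a ratio of cells.

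**Figure D2:**
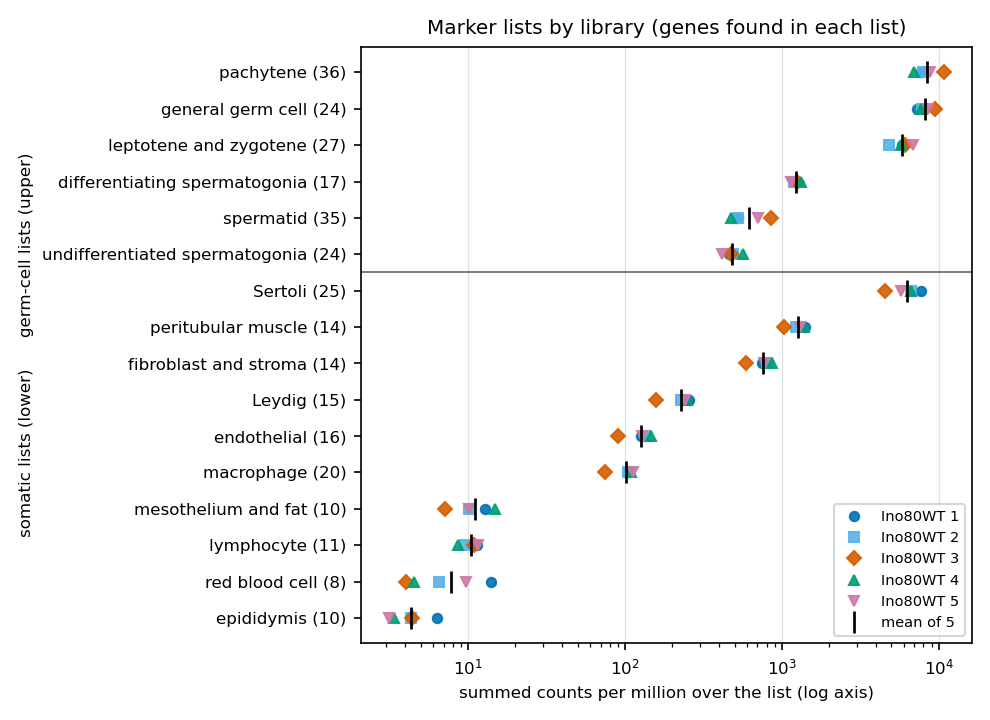
Summed CPM of each germ-cell list (above the line) and somatic list (below it) on a log axis, with 1 symbol per library, a bar at the mean and the number of genes found in parentheses. Pachytene, general germ-cell, Sertoli, and leptotene and zygotene genes lead, Ino80WT 3 is the lowest library in 8 of the 10 somatic lists, and lymphocyte, red blood cell, epididymis, and mesothelium and fat genes stay under 15 CPM in sum.

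Genes of undifferentiated spermatogonia, the compartment that holds the stem cells, were present at low levels. The 24 genes summed to 458, 491, 474, 569 and 415 CPM. Of them, 15 were at 1 CPM or more in every library, a share near the 57.7% of all gene rows. The most abundant by counts were Taf4b, a germ-cell TFIID subunit, at 117 ± 10.4 CPM, Foxo1, a transcription factor of the stem cell pool, at 75.1 ± 8.24 CPM, and Id4, a marker of stem cells, at 73.2 ± 8.83 CPM. Zbtb16, which encodes the self-renewal factor PLZF, had 27.5, 37.0, 37.2, 58.1 and 25.9 CPM, and Gfra1, the GDNF co-receptor, had 5.13, 5.59, 7.13, 9.28 and 3.74 CPM. Both were highest in Ino80WT 4 and lowest in Ino80WT 5, as were the list sums: 12 of the 18 genes with enough counts were highest in Ino80WT 4, where 16.6% of all genes were highest, and 13 were lowest in Ino80WT 5, where 13.8% of all genes were lowest. Utf1, an embryonic and early spermatogonial chromatin gene, was the most variable member at 1.67, 1.36, 0.928, 3.65 and 0.936 CPM. Nanos2, which holds spermatogonia undifferentiated, averaged 0.433 ± 0.147 CPM, and Pax7, expressed in rare spermatogonia, 0.286 ± 0.132 CPM.

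Differentiating spermatogonia were represented by 17 genes that summed to 1249, 1193, 1254, 1320 and 1145 CPM, with little spread, and 16 were at 1 CPM or more in every library. Uhrf1, which maintains DNA methylation through division, had 158, 162, 193, 167 and 163 CPM. Dmrt1, which guards the mitosis to meiosis decision, had 184, 160, 124, 180 and 127 CPM and was lowest in Ino80WT 3. Dmrtb1, which acts at the same transition, ran the other way with 126, 142, 281, 127 and 161 CPM, highest in Ino80WT 3. Stra8, the retinoic acid target that starts meiosis, had 130, 78.4, 77.6, 114 and 89.2 CPM, and Kit, the receptor that marks differentiating cells, had 75.3 ± 14.9 CPM.

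The 27 genes of leptotene and zygotene were all at 1 CPM or more in every library. None reached a 2-fold range, against 13.0% of the 14141 genes with a mean of at least 1 CPM, a share not matched for level. Their sums were 5838, 4838, 6064, 5787 and 6822 CPM, highest in Ino80WT 5, which held 15 of the 27 highest values where 13.8% of all genes were highest, and lowest in Ino80WT 2, which held 14 of the lowest where 9.55% of all genes were. Sycp1, the transverse filament of the synaptonemal complex, had 1101, 729, 1034, 1011 and 1330 CPM. Sycp2 and Sycp3, of its lateral elements, had 1034 ± 212 and 484 ± 73.4 CPM; per length the order turned, with 715 for Sycp2 and 1575 for Sycp3. The genes of DNA break formation and repair lay lower per length, at 61.7 for Spo11, which cuts the DNA, 156 for Dmc1, the meiotic recombinase, and 42.6 for Prdm9, which marks where breaks form. In counts Spo11 had 55.6, 60.4, 54.8, 53.7 and 69.0 CPM, with no library far from the rest. Hormad2, a chromosome axis protein, was among the steadiest members at 41.0, 40.2, 38.6, 40.2 and 40.5 CPM. The most variable member was Rec8, a meiotic cohesin, with 47.9, 42.8, 23.4, 43.4 and 32.1 CPM, lowest in Ino80WT 3.

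Pachytene genes formed the largest germ-cell sum per length, with all libraries and without Ino80WT 3. In CPM they led in 4 of the 5 libraries, all but Ino80WT 4, but their lead in the mean rested on Ino80WT 3: without it they averaged 7841 ± 741 CPM and the general germ-cell genes 7884 ± 524 CPM. The 36 genes summed to 7698, 7974, 10848, 6949 and 8742 CPM, or 8442 ± 1490, and 35 were at 1 CPM or more in every library. Ldhc had 887, 898, 1330, 777 and 1098 CPM. Hspa2, a testis HSP70 that takes part in taking the synaptonemal complex apart, had 877, 1004, 1244, 827 and 944 CPM, and Piwil1, the PIWI protein that binds pachytene piRNAs, had 748, 862, 978, 695 and 853 CPM. For these 3 genes, Ino80WT 3 was the highest library and Ino80WT 4 the lowest. The same held across the list, with 29 of 35 genes highest in Ino80WT 3 and 26 lowest in Ino80WT 4, where 28.9% and 21.5% of all genes were.

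The spread within the pachytene list was uneven. Ccna1, the cyclin A needed for the first meiotic division, was the most variable at 7.94, 11.1, 37.0, 7.80 and 14.5 CPM, and Ino80WT 3 lay 2.55-fold above the next library. Mybl1, the transcription factor that drives the pachytene programme, had 80.2, 114, 137, 129 and 148 CPM. Pgk2, the testis phosphoglycerate kinase, had 20.7, 27.3, 54.8, 23.0 and 42.4 CPM. In all, 13 of 35 pachytene genes had a 2-fold or larger range, and 4 had it without Ino80WT 3. The ratio of the pachytene to the leptotene and zygotene sum was 1.32, 1.65, 1.79, 1.20 and 1.28.

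Promoters of the 3 leading pachytene genes are shown because the MYB motif is the best known short element of pachytene genes, through Mybl1. Each runs from 250 bases before to 50 bases after the gene's start in RefSeq on GRCm38.p6, on the strand of the gene, and capitals mark AACNGNC, searched on both strands. Ldhc lies at chr7:46861013-46861312 on the plus strand, Piwil1 at chr5:128735996-128736295 on the plus strand, and Hspa2 at chr12:76404120-76404419 on the plus strand.
Ldhc: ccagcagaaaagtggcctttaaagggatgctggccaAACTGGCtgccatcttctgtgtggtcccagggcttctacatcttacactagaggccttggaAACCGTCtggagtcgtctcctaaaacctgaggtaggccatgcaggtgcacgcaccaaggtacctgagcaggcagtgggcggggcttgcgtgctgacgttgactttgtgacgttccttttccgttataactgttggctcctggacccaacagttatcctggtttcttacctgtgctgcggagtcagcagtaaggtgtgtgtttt
Piwil1: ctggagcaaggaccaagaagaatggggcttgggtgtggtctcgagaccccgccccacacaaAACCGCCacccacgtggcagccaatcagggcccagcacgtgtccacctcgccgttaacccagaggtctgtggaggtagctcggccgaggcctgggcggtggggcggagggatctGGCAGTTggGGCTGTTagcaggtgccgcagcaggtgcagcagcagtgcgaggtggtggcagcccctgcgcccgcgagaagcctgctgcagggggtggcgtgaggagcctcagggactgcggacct
Hspa2: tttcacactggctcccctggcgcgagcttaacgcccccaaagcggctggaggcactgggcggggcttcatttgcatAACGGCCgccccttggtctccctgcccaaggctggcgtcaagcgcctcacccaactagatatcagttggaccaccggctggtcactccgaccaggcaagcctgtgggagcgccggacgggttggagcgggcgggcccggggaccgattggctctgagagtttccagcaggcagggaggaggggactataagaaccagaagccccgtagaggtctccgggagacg
The motif began at positions -214 and -153 from the start in Ldhc, at -189, -75 and -66 in Piwil1 and at -174 in Hspa2. It was in 16 of the 24 pachytene promoters matched, from a list of 36 genes, or 66.7%. Of the 11261 promoters matched for genes with a mean of at least 1 CPM, 33.4% held it. The list was chosen with earlier results known, so these shares are no test of enrichment. Among Sertoli genes it was in 3 of 15. A match is a description of these letters only and does not show that a factor binds there.

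Spermatid genes were mostly low, with 6 of 35 at 1 CPM or more in every library against 57.7% of all gene rows. Another 6 had no count in any library, a share close to the 15.8% of all gene rows without a count: the protamine genes Prm1, Prm2 and Prm3, the transition protein gene Tnp2, the linker histone gene H1fnt and the calcium-binding sperm protein gene Cabs1. In each library this allows a level of up to 0.127 to 0.179 CPM. Tnp1, the other transition protein, had 0.179, 0.0470, 0, 0.180 and 0.110 CPM, and Akap4, the main protein of the fibrous sheath, averaged 0.154 ± 0.0621 CPM. The list's sum of 524, 527, 860, 476 and 701 CPM came mostly from genes known to be transcribed from pachytene on: Crisp2, a protein of the acrosome and tail, gave 61.1% of it with 295, 300, 531, 296 and 464 CPM, and Dkkl1, an acrosome protein, had 195 ± 43.2 CPM. Actl7b, an actin-like protein of spermatids, had 21.1, 26.1, 41.7, 18.1 and 27.4 CPM. Ino80WT 3 and 5 were the 2 highest libraries for Crisp2 and for Actl7b.

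General germ-cell genes, expressed over many stages, were all at 1 CPM or more in every library, 24 of 24, and summed to 8202 ± 844 CPM. Dazl, an RNA-binding protein that germ cells need throughout, had 783, 678, 810, 859 and 846 CPM. Ddx4, the germ-granule helicase VASA, had 703, 738, 856, 725 and 843 CPM. Mael, which silences transposons with piRNAs, had 628, 627, 824, 604 and 698 CPM. Tdrd6, a scaffold of the chromatoid body, was the most variable, at 178, 321, 604, 297 and 390 CPM; it was the only member with a 2-fold range.

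Sertoli genes formed 71.1 ± 2.20% of the somatic sum. All 25 were at 1 CPM or more in every library, and they summed to 7723, 6695, 4516, 6618 and 5714 CPM. Ctsl, a lysosomal protease that Sertoli cells secrete, had 958, 836, 533, 839 and 740 CPM, and Aard had 741, 591, 368, 592 and 553 CPM. Wt1, a transcription factor that keeps Sertoli identity, had 211 ± 29.4 CPM, Sox9, which sets that identity, 108 ± 17.4 CPM, and Fshr, the receptor for follicle-stimulating hormone, 21.8 ± 2.28 CPM. Amh, the hormone of immature Sertoli cells, had 61.3, 52.3, 32.7, 39.6 and 31.0 CPM. Rhox5, an androgen-dependent homeobox gene on the X, was the most variable member at 52.3, 34.8, 11.1, 38.9 and 36.7 CPM.

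The Sertoli genes moved together between libraries. In Ino80WT 3, 22 of 25 were at their lowest, where 29.1% of all genes were, and in Ino80WT 1, 17 were at their highest, where 28.4% of all genes were. The median Sertoli gene lay 0.46 below its own mean on the log2 scale in Ino80WT 3 and 0.29 above it in Ino80WT 1. A 2-fold range was seen in 8 of the 25, and in 1 without Ino80WT 3. The ratio of the pachytene to the Sertoli sum was 0.997, 1.19, 2.40, 1.05 and 1.53. Ino80WT 3 had less somatic and more late spermatocyte RNA at once, and which of these set the other's share was not tested.

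Leydig genes, for steroid synthesis between the tubules, were present but low, at 258, 229, 158, 251 and 242 CPM in sum over 15 genes. Nr5a1, the steroidogenic factor SF-1 that Sertoli cells also express, gave 35.8% of the sum. Fdx1 and Fdxr, the electron carriers of mitochondrial P450 enzymes found in many cells, had 30.8 ± 2.82 and 27.5 ± 4.21 CPM. Cyp17a1, the enzyme that commits steroids to androgens, had 9.67, 4.89, 0.211, 7.57 and 11.2 CPM, and Cyp11a1, which starts the pathway, had 10.3, 5.68, 1.81, 10.01 and 11.4 CPM. Both were lowest in Ino80WT 3 by a wide margin. Cyp17a1 had a range of 52.0-fold between the highest library and Ino80WT 3, where it lay near the limit of 0.127 CPM. That fold is thus poorly measured, and without Ino80WT 3 the range of Cyp17a1 was 2.31-fold. Star, which carries cholesterol into mitochondria, had 21.1, 16.4, 10.04, 18.8 and 23.6 CPM. Insl3, a product of mature Leydig cells, averaged 0.179 ± 0.134 CPM, with 18 counts over all libraries.

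Peritubular muscle genes were the second largest somatic sum, also per length, at 1406, 1227, 1030, 1378 and 1304 CPM, and all 14 were at 1 CPM or more in every library. Acta2, smooth muscle actin, had 379, 307, 256, 324 and 306 CPM; Myh11, smooth muscle myosin, had 292 ± 36.7 CPM and Mylk, its kinase, 254 ± 36.3 CPM. Ptch1, the hedgehog receptor, was the most variable at 27.6, 55.01, 48.4, 61.6 and 50.9 CPM, lowest in Ino80WT 1. It has 14185 bases of exon, and Ino80WT 1 was low in long transcripts, as given further on. Stromal genes summed to 757 ± 102 CPM, led by the collagens Col1a2 at 215 ± 24.0 CPM and Col3a1 at 155 ± 19.9 CPM. Igf1, a growth factor of stroma and Leydig cells, had 35.3, 35.7, 15.7, 45.2 and 42.4 CPM, lowest in Ino80WT 3.

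Vessel and immune genes were a small part of the counts. Endothelial genes summed to 126 ± 21.4 CPM, with Eng, a TGF-beta co-receptor, at 21.4 ± 4.54 CPM and Cdh5, the endothelial cadherin, at 19.8 ± 3.97 CPM. Macrophage genes summed to 105, 105, 74.7, 109 and 113 CPM, lowest in Ino80WT 3, and 45.0% of the sum was Mrc1, the mannose receptor of tissue macrophages, at 45.7 ± 7.36 CPM. The MHC class II genes varied most: Cd74, the invariant chain, had 9.25, 7.0001, 2.66, 3.06 and 8.75 CPM and H2-Aa 3.82, 2.54, 0.591, 1.04 and 4.57 CPM, both low in Ino80WT 3 and 4. In all 5 somatic lists with 10 or more genes tested beside the Sertoli list, the median gene was lowest in Ino80WT 3, from -0.23 for peritubular muscle to -0.69 for Leydig genes on the log2 scale.

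The remaining somatic lists had the lowest sums. Lymphocyte genes summed to 10.4 ± 1.26 CPM, with Ms4a1, the B cell antigen CD20, at 0 counts in all 5 libraries. Epididymis genes summed to 4.32 ± 1.26 CPM, with Crisp1, Lcn5, Lcn8 and Gpx5 at 0. Mesothelium and fat genes summed to 11.03 ± 2.93 CPM, 78.0% of it from Lrrn4, with Cfd at 0. Red blood cell genes summed to 7.77 ± 4.16 CPM; the alpha-globin genes Hba-a1 and Hba-a2 were at 0, which cannot be read as absence because they are near-identical copies that unique counting leaves out. The beta-globin row Beta-s had 9.67, 4.04, 1.73, 1.89 and 5.01 CPM.

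Isozyme pairs place the switch to germ-cell forms on a common scale, as ratios per kilobase of exon within a library. Ldhc was 5.25, 5.38, 5.003, 4.72 and 5.24 times Ldha, the form of muscle, in Ino80WT 1 to 5, a ratio that hardly moved between libraries. Against Ldhb, the heart form, it was 1.78, 2.38, 5.21, 2.03 and 3.40 times, and the ratio was highest in Ino80WT 3. Ldha followed the germ-cell pattern, with 557 CPM in Ino80WT 3 and 345 to 439 CPM elsewhere, while Ldhb followed the Sertoli pattern, with 254 CPM in Ino80WT 3 and 495 CPM in Ino80WT 1.

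Pgk2, an autosomal retrogene, was 0.538, 0.852, 2.35, 0.573 and 1.24 times its X-linked parent Pgk1, so that only in Ino80WT 3 and 5 did the germ-cell form exceed the parent. Rpl10l, a retrogene whose X-linked parent Rpl10 is silenced in pachytene, was 1.93, 2.11, 2.63, 1.78 and 2.04 times Rpl10. Rpl39l, a germ-cell ribosomal protein with the X-linked relative Rpl39, was 3.31, 4.11, 5.19, 2.83 and 3.29 times Rpl39. Both ratios exceeded 1 in all 5 libraries. Hspa2 was 0.950, 1.34, 1.74, 1.01 and 1.27 times Hspa8, the constitutive HSP70, and thus above 1 in 4 of the 5 libraries. Gapdhs, the glyceraldehyde dehydrogenase of spermatids, had 10 counts over all libraries and a level per length of 0.228, beside 165 for Gapdh. These paralogs share sequence, so reads that fit both copies may be missing from both.

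Genes used throughout the cell were steadier. Cytosolic ribosomal protein genes summed to 26662, 19622, 19987, 22496 and 20422 CPM over 85 genes, highest in Ino80WT 1. There, 80 of 83 genes tested were at their highest, against 28.4% of all genes. These genes are short, with a median of 1739 bases of exon against 4389 for all genes tested. In Ino80WT 1 the median ribosomal protein gene lay 0.31 above its mean on the log2 scale. The median gene with 1 to 2 kb of exon lay 0.20 above, and the part of length was not tested. Rplp0, Rpl4 and Rps24 led by counts, and 1 of the 83, Rpl30, had a 2-fold range. Translation factors summed to 16778 ± 640 CPM, and none of 36 had a 2-fold range. Of 19 genes commonly used as reference genes in PCR, 1 had a 2-fold range: B2m, the light chain of MHC class I, at 50.6, 44.5, 24.3, 42.5 and 38.3 CPM. Ywhaz, a 14-3-3 protein, varied little, with 537, 525, 480, 532 and 500.1 CPM. By contrast, Gapdh had 212, 167, 124, 181 and 144 CPM and Tubb5 389, 350, 228, 404 and 293 CPM, both lowest in Ino80WT 3.

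Chaperone genes summed to 13729 ± 912 CPM and were the steadiest of the 3 response lists, with 1 of 20 genes at a 2-fold range. That gene was Bag3, a co-chaperone, at 10.03, 11.04, 19.96, 12.7 and 12.7 CPM. The stress-inducible Hspa1a and Hspa1b had 4.72 ± 0.691 and 7.01 ± 1.03 CPM, with no library apart, though these are near-identical copies. Interferon-response genes summed to 221 ± 19.4 CPM, and 19 of 33 were at 1 CPM or more in every library, a share like the 57.7% of all gene rows. Proliferation genes summed to 3251 ± 132 CPM, with all 22 at that level. Top2a, which untangles DNA, had 718 ± 40.8 CPM, and Mki67, which coats mitotic chromosomes, had 226, 289, 371, 352 and 363 CPM, lowest in Ino80WT 1. Aurka, a mitotic kinase that also acts in meiosis, was the only proliferation gene with a 2-fold range, at 78.6, 80.7, 127, 69.1 and 82.5 CPM.

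Fuel genes fitted no single cell type. Slc2a3, the glucose transporter of germ cells, had the most counts of its list, at 810, 1090, 1686, 920 and 1214 CPM, and was highest in Ino80WT 3. Pkm, the pyruvate kinase, had 541, 447, 349, 490 and 402 CPM and was lowest in Ino80WT 3. Pfkp, a phosphofructokinase, was the most variable of the 27 genes tested at 22.6, 35.5, 77.3, 31.9 and 42.8 CPM. A 2-fold range was seen in 6 of the 27, with 13.0% of all genes, and in 1 without Ino80WT 3, near the 5.64% of all genes.

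Long non-coding RNAs were led by Malat1, a nuclear speckle RNA, at 716, 792, 554, 737 and 677 CPM. Tug1, which is needed for male fertility, had 188 ± 16.5 CPM, and Kcnq1ot1, the antisense transcript of an imprinted domain, 169 ± 13.8 CPM. Meg3, an imprinted RNA, was the most variable at 9.31, 9.96, 3.54, 11.8 and 7.49 CPM, lowest in Ino80WT 3, where 29.1% of all genes were lowest.

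Genes of the X chromosome differed from the autosomes both in level and between libraries. Of 1032 X-linked rows, 519 were at 1 CPM or more in every library, or 50.3%, against 58.3% of autosomal rows; single autosomes ran from 48.5% to 65.8%, so the X lay within their range. The median of those genes was 20.4 CPM, below every autosome, whose medians ran from 27.4 to 40.4 CPM. Per length the X median was 22.5, and the autosomes' ran from 26.5 to 40.0. X-linked genes took 2.34%, 2.37%, 1.85%, 2.62% and 2.35% of counts, lowest in Ino80WT 3. There, 58.4% of the 539 X-linked genes tested were at their lowest, against 27.9% of autosomal genes. The median X-linked gene there lay 0.23 below its mean on the log2 scale, beyond the range of the autosomes, -0.04 to 0.03. The X-linked genes and the Sertoli genes were thus both lowest in the library with the most pachytene RNA, and the part of either in the other was not tested.

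The X-linked genes with the most counts were Maged1, a MAGE family protein, at 1103, 1041, 661, 972 and 820 CPM, the deubiquitinase Usp9x at 541 ± 91.3 CPM and the ubiquitin ligase Huwe1 at 314, 586, 496, 700 and 565 CPM. Lonrf3 and Mum1l1 followed at 416 ± 60.2 and 397 ± 57.5 CPM. On the Y, 8 of 45 rows, or 17.8%, were at 1 CPM or more in every library, against 57.7% of all gene rows. Uba1y, a ubiquitin-activating enzyme of spermatogonia, had 134, 129, 123, 148 and 122 CPM. Eif2s3y, an initiation factor needed for spermatogonial proliferation, had 69.2, 52.9, 51.9, 66.5 and 70.2 CPM, and per length it was 0.918 ± 0.0966 times its X-linked copy Eif2s3x. Ddx3y, Usp9y and Uty had 58.9 ± 8.56, 38.5 ± 13.6 and 23.4 ± 5.41 CPM. Many Y-linked rows have close copies, which unique counting can leave out. Ino80, the gene under study in the series and the ATPase of a chromatin remodelling complex, had 71.9, 94.2, 98.5, 93.6 and 87.6 CPM, or 89.2 ± 10.4.

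Variation between the libraries was small for most genes. Among 14141 genes with a mean of at least 1 CPM, the highest library was under 1.5-fold above the lowest for 8408, or 59.5%. The range reached 2-fold for 1836 genes, 13.0%, and 4-fold for 196. The median biological coefficient of variation (BCV), the spread left after counting error, was 0.125, with quartiles of 0.0793 and 0.188. Pairwise correlations of log2 CPM across genes ran from 0.967, between Ino80WT 1 and 3, to 0.991, between Ino80WT 2 and 5; genes are not independent replicates, and these describe the libraries only.

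Ino80WT 3 was most often the highest library among genes with a wide range. It was highest for 878 of the 1836 genes with a 2-fold range, or 47.8%, against 28.9% of all genes, and lowest for 488, or 26.6%, against 29.1%. Ino80WT 1 was the lowest for 645, or 35.1%, against 26.1%. Without Ino80WT 3, 797 genes reached a 2-fold range, and without Ino80WT 1 and 2 it was 1149. On the first principal component, with 52.7% of the variance, the scores were -26.0, -7.17, 40.5, -14.9 and 7.61. The second component, with 23.9%, set Ino80WT 1 at 23.5 against Ino80WT 4 at -22.7. By list, 9 of 18 genes of undifferentiated spermatogonia, 13 of 35 pachytene genes, 8 of 25 Sertoli genes and 7 of 12 Leydig genes had a 2-fold range, all above the 13.0% of all genes. Without Ino80WT 3 these counts were 8, 4, 1 and 3, with 5.64% of all genes. The share over all genes is not matched for level. Among the 10264 genes with a mean of at least 10 CPM, 702 had a 2-fold range over the 5 libraries. The lists differ in level, and how much of their shares follows from it was not tested.

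**Figure D3:**
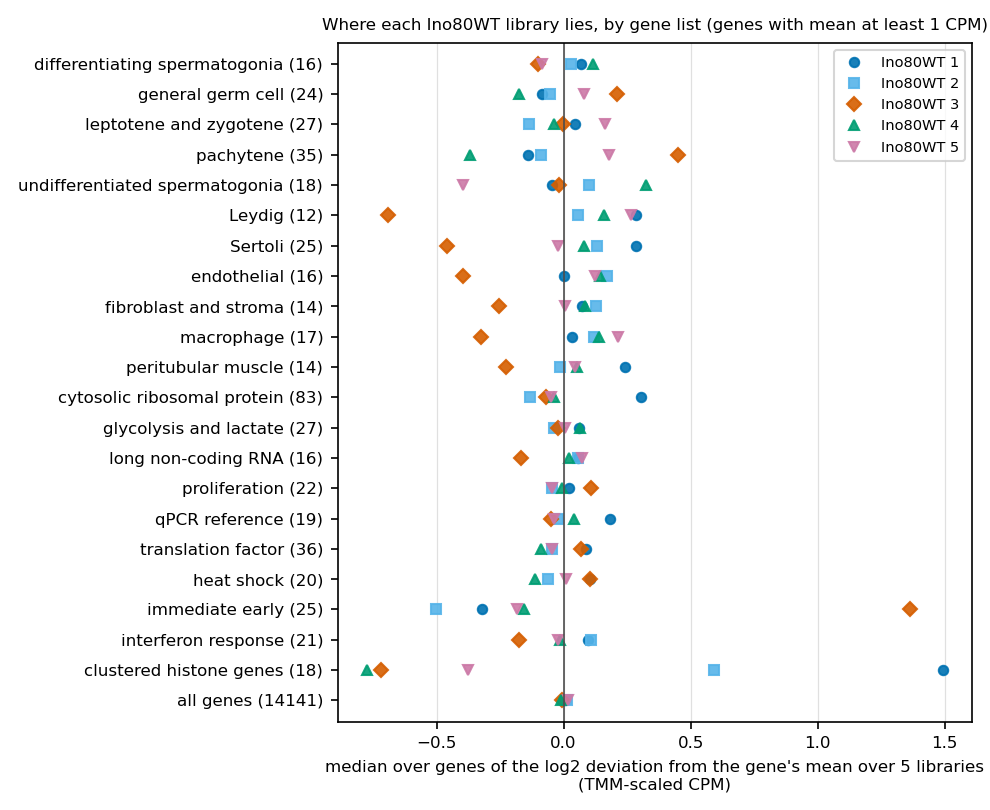
For each gene list, the median over its genes of the log2 deviation from the gene's mean over the 5 libraries, in TMM-scaled CPM, with 1 symbol per library and the number of genes with a mean of at least 1 CPM in parentheses. Ino80WT 3 lies furthest right for immediate early genes, at 1.36, and pachytene genes, at 0.45, and furthest left for the somatic lists, while Ino80WT 1 and 2 lie right for clustered histone genes and the median of all genes is near 0 in every library.

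The immediate early genes, which cells switch on within minutes of a stimulus, had the largest share of members with a 2-fold range of any list with 10 or more genes tested. Their 25 members summed to 678, 567, 1970, 778 and 713 CPM, and 24 of the 25 were highest in Ino80WT 3, where 28.9% of all genes were highest. Fos, a subunit of the transcription factor AP-1, had 39.2, 27.1, 223, 57.9 and 54.5 CPM. Egr1, a zinc finger factor, had 59.7, 44.5, 363, 87.2 and 77.8 CPM. Fosb, a relative of Fos, had 9.25, 7.85, 149, 34.0 and 14.4 CPM, the widest range of the list at 19.6-fold, with a BCV of 1.16; without Ino80WT 3 the range was 4.14-fold and the BCV 0.63. Ino80WT 3 was well above the other 4 libraries for all 3 genes, and Ino80WT 2 was the lowest.

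Other members followed. Junb, another AP-1 subunit, had 34.1, 22.9, 119, 36.5 and 32.0 CPM, and Jun had 37.6, 38.5, 134, 56.6 and 41.9 CPM. Cyr61, a secreted matrix protein, had 38.7, 27.2, 126, 39.5 and 45.4 CPM, and the related Ctgf had 122, 107, 161, 107 and 120 CPM. Atf3, a stress-induced factor, had 2.21, 2.35, 20.2, 2.07 and 2.53 CPM, and Arc, best known from neurons and not in the list, had 18.7, 24.9, 81.5, 20.7 and 28.7 CPM. Myc, also in the list, had 2.10 ± 0.394 CPM and was the only member whose highest library was not Ino80WT 3. A 2-fold range was seen in 20 of 25 members, and in 3 of 24 without Ino80WT 3, where 5.64% of all genes had it. In the library where these genes were highest, the somatic sum was lowest, at 6487 CPM, and the pachytene sum highest, at 10848 CPM; the part of either in these values was not tested.

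Promoters of 3 immediate early genes are shown because TGACG, the core of the site bound by CREB-family factors, is a textbook element of such genes. The windows are as above, from RefSeq on GRCm38.p6, and capitals mark TGACG on either strand. Fos lies at chr12:85473640-85473939 on the plus strand, Fosb at chr7:19309996-19310295 on the minus strand and Nr4a1, a nuclear receptor, at chr15:101266596-101266895 on the plus strand.
Fos: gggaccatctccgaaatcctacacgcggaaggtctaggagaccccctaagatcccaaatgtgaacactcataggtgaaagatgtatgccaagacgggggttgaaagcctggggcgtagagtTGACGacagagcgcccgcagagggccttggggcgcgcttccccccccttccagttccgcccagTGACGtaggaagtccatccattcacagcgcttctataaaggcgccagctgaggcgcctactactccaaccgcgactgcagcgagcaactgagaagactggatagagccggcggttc
Fosb: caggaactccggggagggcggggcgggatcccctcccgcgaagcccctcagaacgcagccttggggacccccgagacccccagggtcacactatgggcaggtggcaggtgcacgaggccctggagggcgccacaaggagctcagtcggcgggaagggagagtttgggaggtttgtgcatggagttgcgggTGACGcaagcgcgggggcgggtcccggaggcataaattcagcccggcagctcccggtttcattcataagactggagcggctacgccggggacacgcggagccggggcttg
Nr4a1: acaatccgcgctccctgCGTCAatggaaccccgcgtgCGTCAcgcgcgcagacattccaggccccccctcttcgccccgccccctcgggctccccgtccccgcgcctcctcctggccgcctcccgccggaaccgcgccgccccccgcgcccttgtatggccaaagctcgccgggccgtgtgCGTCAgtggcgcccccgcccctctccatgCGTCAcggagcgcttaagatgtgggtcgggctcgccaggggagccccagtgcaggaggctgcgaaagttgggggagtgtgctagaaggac
The letters began at -129 and -66 in Fos, at -60 in Fosb and at -233, -213, -69 and -40 in Nr4a1, where all 4 are on the opposite strand. They were in 10 of 19 immediate early promoters matched, from a list of 25 genes, or 52.6%. They were in 30.8% of promoters of genes with a mean of at least 1 CPM and in 4 of 24 pachytene promoters. The full palindrome TGACGTCA, which contains this core, was in 2 of the 19 and in 3.17% of expressed genes. Nr4a1 had 16.7, 13.7, 62.1, 18.9 and 23.3 CPM, highest in Ino80WT 3 as were Fos and Fosb.

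Structural RNAs divided the libraries differently. Rmrp, the RNA of the mitochondrial and ribosomal RNA processing enzyme, had 123, 78.6, 1.43, 3.20 and 2.37 CPM. Rpph1, the RNA of ribonuclease P, had 104, 44.6, 1.14, 1.40 and 0.936 CPM. Both were high in Ino80WT 1 and 2 and at most 3.20 CPM in the other 3. Clustered histone genes, whose mRNAs end in a stem-loop in place of a polyA tail, shared the pattern: Hist1h2bb had 13.4, 10.3, 1.27, 0.766 and 1.16 CPM, and Hist1h1a, a linker histone, had 14.5, 5.26, 2.03, 1.40 and 2.59 CPM. Of 18 such genes tested, a group chosen after their values were seen, 14 had a 2-fold range. Of these 18, 8 passed the minimum mean of 1 CPM only through Ino80WT 1 and 2. Among the other 10, 6 had a 2-fold range over all 5 libraries and 0 over the remaining 3, where 8.12% of all genes had it. Hist2h2be, a member known to have a polyadenylated form, had 19.9, 24.7, 32.1, 20.1 and 27.6 CPM and was highest in Ino80WT 3. Counts of reads that aligned to more than 1 place were also most frequent in Ino80WT 1 and 2, at 26.3% and 22.3% of all counted reads, against 18.4% to 21.3% in the others. The cause of these differences was not tested.

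**Figure D4:**
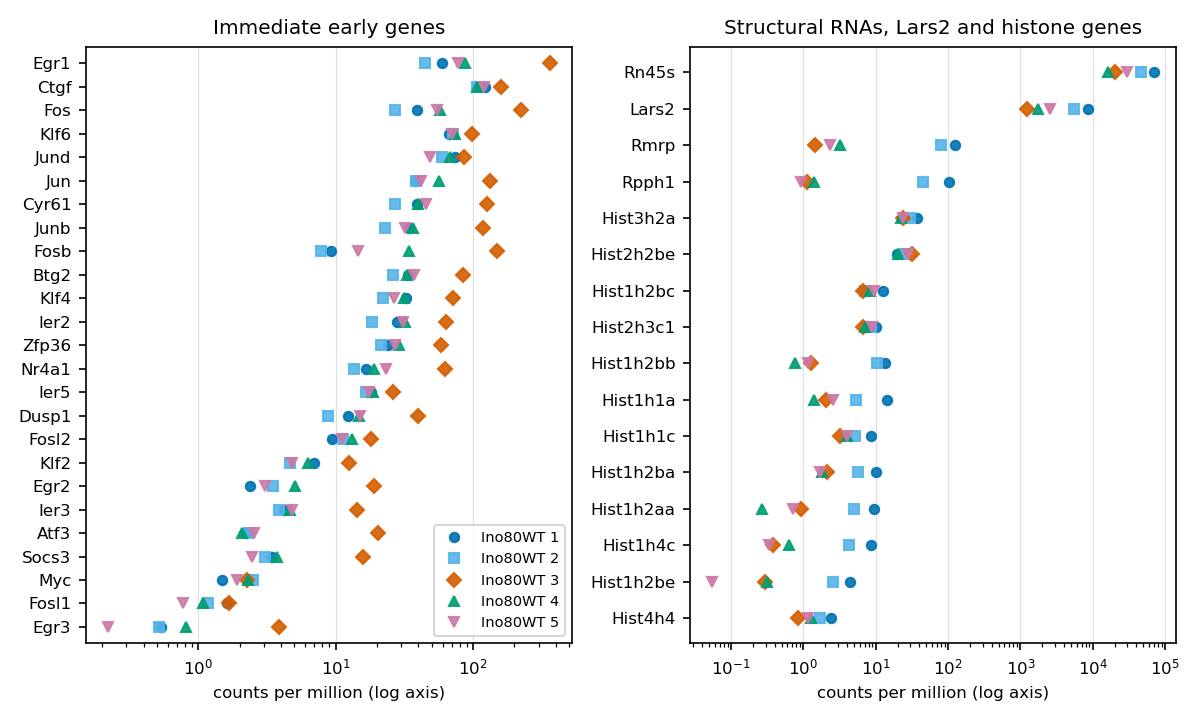
CPM on log axes, with 1 symbol per library, of the 25 immediate early genes (left) and of structural RNAs, Lars2 and the 12 clustered histone genes with the most counts (right). Ino80WT 3 is apart on the left, with Fosb at 149, and Ino80WT 1 and 2 are apart on the right, with Rpph1 at 104 and 44.6 against at most 1.40 in the other libraries.

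The length of the transcript moved with 1 library. In Ino80WT 1 the median gene with under 1 kb of exon lay 0.26 above its mean on the log2 scale, and the median gene with over 8 kb lay 0.21 below it. Between them the values were 0.20 for 1 to 2 kb, 0.10 for 2 to 4 kb and -0.04 for 4 to 8 kb. The other 4 libraries stayed between -0.09 and 0.08 in all 5 bins. Among named genes, Trip12, Dnahc8, Huwe1, Tdrd6, Ptch1 and Mki67, with 7062 to 26820 bases of exon, were lowest in Ino80WT 1. Not every gene of such length was: Mylk, with 11263 bases, had 283 CPM there and 195 to 284 CPM elsewhere. The cause was not tested.

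**Figure D5:**
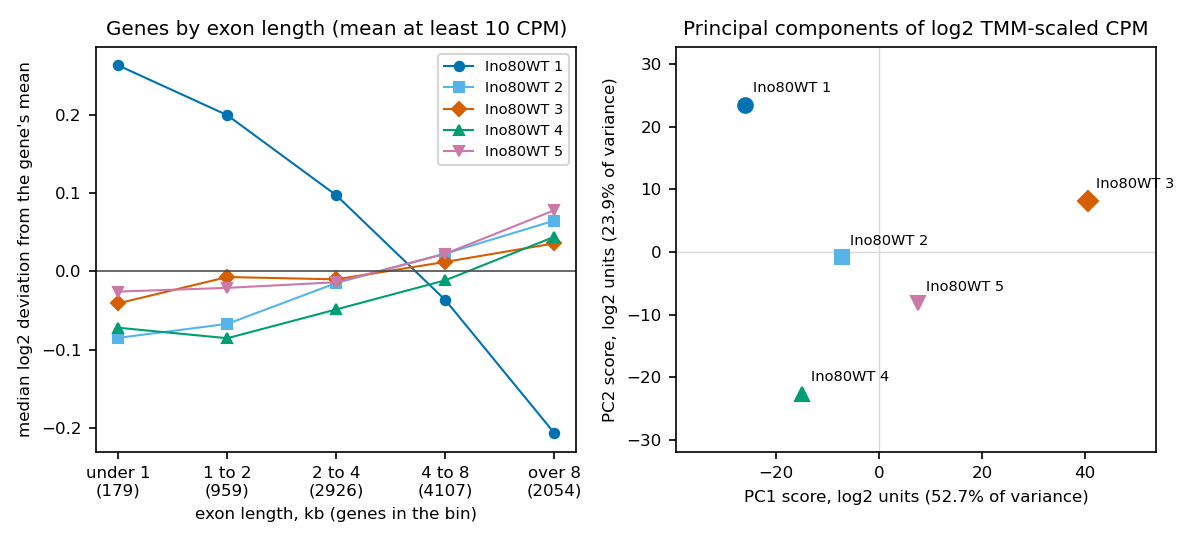
Left, the median log2 deviation from the gene's mean in 5 bins of exon length, for genes with a mean of at least 10 CPM, with 1 line per library; right, the scores of the 5 libraries on the first 2 principal components of log2 TMM-scaled CPM. Ino80WT 1 falls from 0.26 to -0.21 with length, and Ino80WT 3 lies alone at 40.5 on the first component.

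A few genes were on in some libraries and nearly off in others. Parp11, a mono-ADP-ribosyltransferase with a part in spermatid head shaping, had 17.4, 36.9, 0.169, 34.3 and 18.2 CPM, which puts Ino80WT 3 near the limit of detection. Ccdc178 and Dnaic2, a dynein intermediate chain of cilia and flagella, were highest in Ino80WT 3, with 37.3 against 7.40 to 25.1 CPM and 30.4 against 4.42 to 11.9 CPM. Erdr1, a multi-copy gene at the end of the X and Y, had 55.5, 84.8, 36.5, 173 and 34.5 CPM. Of genes named after their values were seen, Plbd1, a phospholipase-like protein, had 28.5 CPM in Ino80WT 4 and at most 2.75 in the others; the pseudogene Gm8615 had 17.0 CPM there and at most 0.239 elsewhere; and Kcnab1, a potassium channel subunit, had 10.5 CPM in Ino80WT 3 and about 1 elsewhere. The labels give the mice as of mixed background; the cause of these differences was not tested.

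At the other end, 727 genes varied no more than the lowest dispersion the estimate allows, a BCV of 0.00988, and 204 of them had a mean of at least 10 CPM. The genes with the largest shortfall below the trend were among these, so their order follows the trend alone, which is why all of them lay just above 10 CPM. They were Adprm, Arv1, Col4a6, Colec12, Mob3c, Orai1, Pdzrn3, Rps6ka4, Sgtb, Susd2, Tmem143 and Tyms. Arv1, which helps move sterols out of the endoplasmic reticulum, had 10.7, 10.8, 9.24, 10.1 and 10.1 CPM, and Tyms, thymidylate synthase, had 11.3, 10.01, 9.66, 11.7 and 9.47 CPM. A low BCV here says that the libraries differed by little more than counting error at this depth. Among better-measured genes, Irf9, an interferon-pathway factor, had 21.9, 21.3, 21.4, 22.6 and 21.9 CPM, a range of 1.05-fold, and Mcm6, of the replicative helicase, had 146 ± 2.77 CPM; Mcm6 was named after its value was seen.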

How the data were processed

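PolyA RNA-seq libraries of the 5 Ino80WT samples were used; the other 5 libraries of the series were not analysed here. The deposited values are raw read counts per gene that the authors made with TopHat2 and HTSeq on mm10, per the submitters' processing notes, which also list DESeq2; no label or header names the gene annotation or the strand setting of the counting. HTSeq's 5 rows that name no gene held 35.5% to 43.5% of the counts and were dropped. Columns mapped to no sample numbered 0.

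Counts were divided by the library's gene total (CPM). For spread they were also scaled by TMM (factors 0.964 to 1.06), and dispersions were estimated per gene in edgeR 4.0.16 with an intercept only and 0 prior degrees of freedom; the BCV is the square root of the dispersion. A range is the highest over the lowest library in TMM-scaled CPM. Principal components used log2 CPM with a prior count of 2. DESeq2 1.42.0 dispersions were an alternative. Lengths are exon unions of GENCODE M21 on GRCm38, for 23074 of 23420 rows; chromosomes came from RefSeq GRCm38.p6, with 21571 rows matched by symbol and 1689 by an older one. Intervals and floors cover counting error only.

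The gene lists hold 615 entries, of which 607 were found. The members and lists were chosen with earlier results of these data known. Genes named were the 20 with the highest mean CPM; in each list the 3 highest, the most variable and, for markers, up to 6 at 0; the 12 with the most and the 12 with the least excess of dispersion over trend at a mean of at least 10 CPM; the 5 highest on the X and on the Y; and Ino80. Of these, 2 genes are not reported here. Other list members, isozymes and promoters in the text were picked after their values were seen. On simulated data for 14141 genes, 50 of 100 genes with BCV raised 2-fold and 91 of 100 with it raised 4-fold were among the 200 largest excesses.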

Additional observations from a re-analysis of the deposited data

Results flagged for a closer look

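In 16 of 165 results over the 5 libraries, 1 library lay so far from the rest that its gap to the nearest other library exceeded 0.71 of the whole range; chance alone flags about 5% of groups that were not chosen by their values. That rate does not apply to the 48 genes named for their spread, which gave 12 of the 16; the other 117 results gave 4. Ino80WT 3 was the library apart in 14 of the 16 and Ino80WT 4 in 2.

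Of the immediate early genes, Ino80WT 3 stood apart for Egr1 at 363 CPM, with the next library at 87.2, Fos at 223 CPM against 57.9, Fosb at 149 CPM against 34.0, Junb at 119 CPM against 36.5, Cyr61 at 126 CPM against 45.4 and Ctgf at 161 CPM against 122. The summed immediate early list stood apart with them, at 1970 CPM against 778. Bag3, a co-chaperone, had 19.96 CPM against 12.7.

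Germ-cell and cell-cycle genes for which Ino80WT 3 stood apart were Ccna1 at 37.0 CPM against 14.5, Dmrtb1 at 281 CPM against 161, Dnaic2 at 30.4 CPM against 11.9, Aurka at 127 CPM against 82.5 and Uhrf1 at 193 CPM against 167. The summed macrophage list was apart at the low end in Ino80WT 3, at 74.7 CPM against 105 in the next lowest. In Ino80WT 4, Utf1 had 3.65 CPM against 1.67 and Pdzrn3 had 12.1 CPM against 10.2; Pdzrn3 is at the lower bound of the dispersion, so that gap is close to counting error.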

How the results depend on the processing

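No paired analysis was possible because 1 group is described and its replicate numbers pair it with nothing here. Of 55 alternatives to the 6 main results, 39 left the value within its spread or within 1.5 times, and 16 moved it further. The main results have no direction that an alternative could reverse. The share of counts in the top genes was 6.03% for 10 genes and 41.7% for 1000, in place of 13.8% for 100, and 10.6% without Rn45s. The germ sum was 20334.5 CPM without shared or leading members and 39518 per length; the somatic sum was 6033 CPM and 16397. Genes with a 2-fold range numbered 702 at a mean of at least 10 CPM, 3220 with the minimum set at 10 counts, and 1149 without Ino80WT 1 and 2; this alternative, the per-length sums and the ratios and ranges without Ino80WT 3 were added after the data were seen. The first component held 59.6% of variance for genes with a mean of at least 10 CPM and 43.3% with genes at unit variance. Leaving out 1 library at a time gave 13547 to 13644 genes at 1 CPM in all, a top share of 12.9% to 14.4%, a germ sum of 23812 to 25338 CPM, a somatic sum of 8355 to 9337 CPM, 797 to 1749 genes with a 2-fold range, the fewest without Ino80WT 3, and 49.2% to 64.1% of variance. For the BCVs of named genes, 166 alternatives moved the value by more than its spread when 1 library is left out and 629 did not. Depth limits levels under 0.127 to 0.179 CPM.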
